A study of Drosophila melanogaster with 5 samples.

Results

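The achaete-scute complex is a cluster of 4 genes near the tip of the Drosophila X chromosome: ac (achaete), sc (scute), l(1)sc (lethal of scute) and ase (asense). It was examined here as the open-chromatin peaks whose midpoint lies between positions 240000 and 350000 of the X on the dm3 genome build, an interval of 110 kb given as that of the complex. This rule uses position only. It selected 13 of the 20000 peaks in the series, 9 of the 10000 in the midline list and 4 of the 10000 in the whole-embryo list. The reference table used here is on Release 6 and no position was moved between builds. No peak is therefore assigned to a gene, and whether each of the 4 genes lies inside the interval on dm3, ase at its upper end in particular, was not determined. For that reason the peaks just beyond both edges are described as well.

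The 4 genes encode related basic helix-loop-helix transcription factors. The products of ac, sc and l(1)sc are proneural proteins, which make groups of ectodermal cells competent to become neural precursors and act as dimers with the product of da (daughterless) on E-box sequences. Notch signalling, through the repressors of the Enhancer of split complex, then limits the neural fate to single cells of each group. The product of ase acts later, in the neural precursors themselves. l(1)sc is the main proneural gene of the embryonic central nervous system and is known to act in precursors of the midline. sc also serves as an X-linked signal in sex determination. The ac and sc genes are known for scattered enhancers between and around them that act at a distance and are shared by both genes.

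FAIRE-seq enriches DNA that is not held in nucleosomes, and its peaks mark open regions such as active enhancers and promoters. The midline group comprised 2 samples of GFP-positive cells, sorted by flow cytometry from embryos of the strain sim3.7-Gal4 UAS-mCD8::GFP at 6 to 8 hours after egg laying. In that strain a fragment of the midline gene sim drives Gal4, and Gal4 switches on a membrane-bound GFP, so the sorted cells are those in which the fragment is active. The embryo group comprised 2 samples of whole OregonR embryos of the same age, which contain midline cells too. Sorted cells were dissociated before a 5-minute fixation and whole embryos were fixed for 10 minutes before homogenisation, so genotype, handling and cell type cannot be told apart between the groups. A further sample, genomic DNA of adult virgin females of the strain y;cn,bw,sp, served as input and has no values here. The authors pooled the 2 replicates of each group before calling peaks, so each list is 1 sample, there is no spread between replicates and no test between the groups was possible. Read depth is unknown. Markers of the midline and of other cell types could not be checked, since that needs gene positions on dm3.

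In the Release 6 annotation, the genes of this stretch follow each other as y, lncRNA:yar, ac, lncRNA:CR44751, lncRNA:CR44752, lncRNA:CR44753, sc, l(1)sc, Pgcl, ase and Cyp4g1. The pigmentation gene y and the cytochrome P450 gene Cyp4g1 flank the complex. This order names the neighbours only and places no peak.

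In the window, the full midline list had more peaks than the full embryo list, and most of the midline peaks had no listed embryo counterpart. Of the 9 midline peaks, 3 overlapped an embryo peak by at least 1 bp and are called shared (33.3%, exact Clopper-Pearson 95% interval 7.49 to 70.1%). The other 6 were midline-only (66.7%), against 39.1% in the full midline list and 32.3% of its peaks on the X. Of the 4 embryo peaks, 3 were shared (75.0%, 19.4 to 99.4%) and 1 was embryo-only (25.0%), against 43.4% in the full embryo list and 47.7% of its peaks on the X. The intervals cover counting error only. Both are wide enough to include the shared proportion of the full list, 60.9% for the midline and 56.6% for the embryo, and that of the X, 67.7 and 52.3%. At this number of peaks neither share can be told apart from its background. Among the 5000 highest-scoring peaks of each list, 3 of 4 midline peaks were shared (75.0%), or 3 of 5 (60.0%) when peaks tied at the limit were kept. High-scoring midline peaks were mostly shared throughout the series. With the full midline list divided into 10 classes by rank, 3.4 to 37.5% of the peaks in classes 1 to 5 overlapped no peak of the full embryo list.

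From low to high coordinates, the window opened with 2 midline-only peaks, followed by the first shared pair and the embryo-only peak. Next came a group of 3 midline peaks, of which the middle one was shared, then the third shared pair and finally 2 midline-only peaks. No peak of either list lay in the rest of the window.

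**Figure D1:**
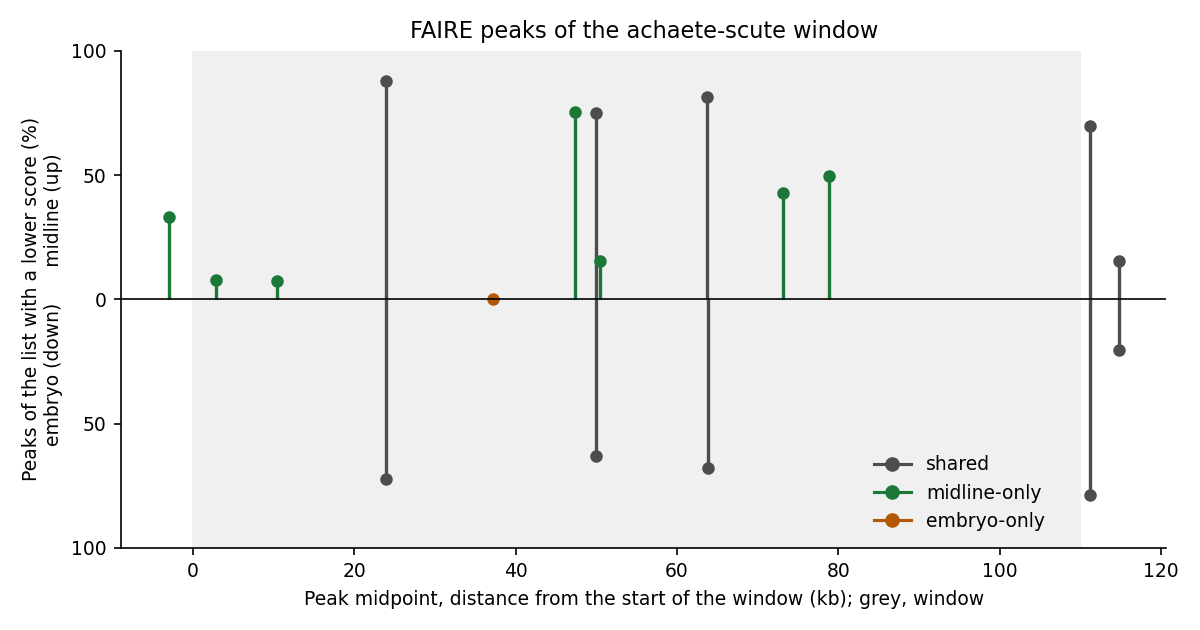
Peaks of the window along the X, by the distance of their midpoint from the window's start in kb, with midline peaks drawn upwards and embryo peaks downwards. The height is the percent of peaks in the same list with a lower score, and the grey area is the 110 kb window. The 3 shared regions stand high in both lists, 1 midline-only peak stands as high as the shared one beside it, and the embryo-only peak lies at the bottom of its list.

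The first shared region was the strongest of the window in both lists. The midline peak spanned chrX:263653-264207 (555 bp) with a score of 264 and ranked 1192 of 10000. The embryo peak spanned chrX:263663-264167 (505 bp) with a score of 274 and ranked 2769. The authors' scores have no stated scale and are compared only within a list, as ranks. The embryo peak lay wholly inside the midline peak, and their midpoints were 15.0 bp apart. This was the widest midline peak of the window, wider than 91.4% of the midline list.

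The second shared region held a midline peak at chrX:289758-290134 (377 bp, score 174, rank 2473) and an embryo peak at chrX:289849-290128 (280 bp, score 211, rank 3680). Again the embryo peak lay wholly inside the midline peak. Their right edges were 6 bp apart and their left edges 91 bp apart, so the midline peak reached further towards the low coordinates.

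The third shared region had the opposite shape. The embryo peak at chrX:303454-304127 was 674 bp wide, the widest of the 13, and had a score of 239 and rank 3212. The midline peak at chrX:303527-303785 was 259 bp wide, with a score of 208 and rank 1845. The midline peak lay wholly inside the left part of the embryo peak and covered 38.4% of it. The right edges were 342 bp apart, so the open region listed for whole embryos went on where the midline peak ended. With a reciprocal overlap of 50% required, this pair no longer counted as shared.

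All 3 shared regions ranked higher in the midline list than in the embryo list, by 1577, 1207 and 1367 places in their order along the chromosome. Among the 6127 overlapping pairs of the whole series, 46.9% ranked higher in the midline list and the median difference in rank, ignoring its sign, was 1491 places. The 3 differences are therefore of the usual size, and ranks in lists of the same length but unknown depth show no change in openness. The shapes of the first 2 pairs were less usual. In all pairs the midline peak was wider in 19.9%, and the embryo peak lay wholly inside the midline peak in 8.55%. In the window both held for 2 of the 3 pairs. The third pair had a common shape, since the midline peak lay wholly inside the embryo peak in 57.4% of all pairs. With 3 pairs these are values of the pairs and not a property of the complex.

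**Figure D2:**
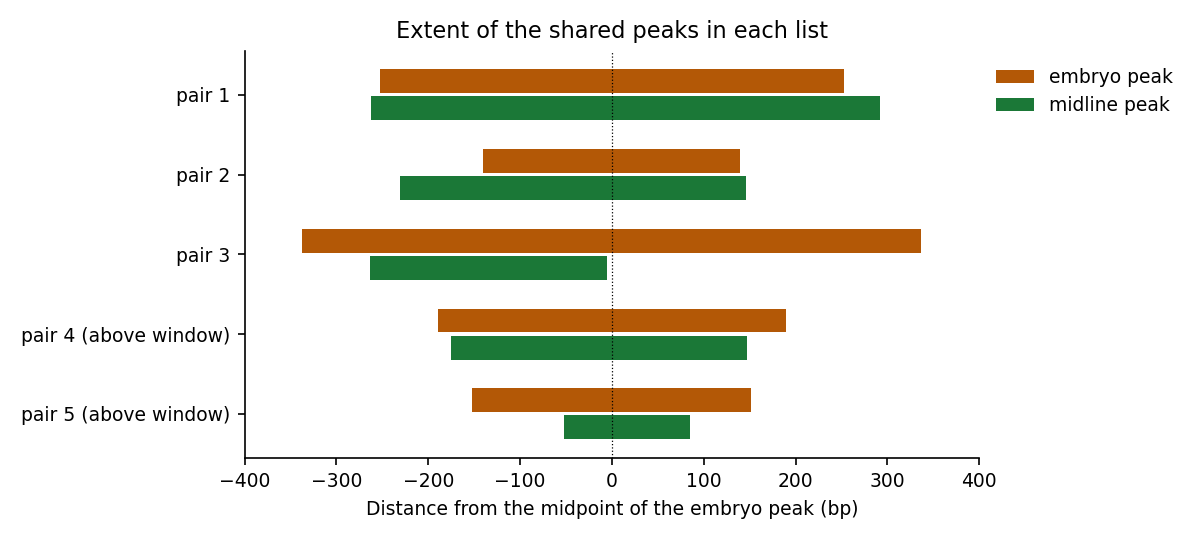
Extent of each shared peak in the 2 lists, as distance in bp from the midpoint of the embryo peak, with pairs 1 to 3 inside the window and pairs 4 and 5 just above it. The midline peak is the wider one in pairs 1 and 2, and covers only the left part of the embryo peak in pair 3.

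The strongest midline-only peak lay at chrX:287085-287507. It was 423 bp wide, had a score of 175 and ranked 2449. The shared midline peak that follows it at a distance of 2250 bp had a score of 174. That peak stood 24 places lower only because 24 peaks are tied at 175, so the 2 were almost level. The embryo peak nearest to the midline-only one was that of the second shared region, 2341 bp away. When the list was divided into 10 classes by rank, 14.6% of the midline peaks in its class were midline-only, so peaks of its strength mostly had an embryo counterpart. The authors' peak names carry numbers that run along the chromosome and skip values, and the skipped numbers may count lower-scoring peaks left out of the deposited lists. The embryo peaks on either side of this midline peak, the embryo-only one and that of the second shared region, have the consecutive numbers 14743 and 14744. If the numbers were given before the lists were cut to 10000, which the files do not state, no lower-scoring embryo call was left out between them.

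A second midline-only peak, at chrX:290440-290580, lay 305 bp beyond the shared midline peak on its other side. It was 141 bp wide with a score of 54 and rank 8327, in a rank class where 68.3% of midline peaks were midline-only. The embryo peak of the second shared region ended 311 bp before it. The embryo peaks on its 2 sides, numbered 14744 and 14745, are again consecutive. The 3 midline peaks of this group lay within 3.50 kb, where the embryo list has 1 peak. Only the middle one therefore had a counterpart, although the first had almost its rank.

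The 2 midline-only peaks at the upper end stood near the middle of the list. The peak at chrX:313011-313186 (176 bp) had a score of 83 and rank 5701, and the peak at chrX:318673-318887 (215 bp) had a score of 95 and rank 4988. Their nearest embryo peak was that of the third shared region, 8.88 and 14.5 kb away. In the embryo numbering 1 peak was skipped between that region and the next listed embryo peak above the window, at a position that is unknown. In their rank classes, 43.9 and 37.5% of midline peaks were midline-only.

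The 2 midline-only peaks at the lower end were weak. The peak at chrX:242705-242932 (228 bp) had a score of 48 and rank 9094, and the peak at chrX:250408-250542 (135 bp) had a score of 47 and rank 9207, where the lowest score in the list is 44. In the rank class that holds both, 75.7% were midline-only. The nearest embryo peak lay 20.7 and 13.1 kb away. The last listed embryo peak below the window ended at position 172397, and 4 embryo numbers were skipped before the first shared region. Whether a skipped embryo call coincides with either midline peak is unknown.

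The single embryo-only peak, at chrX:277109-277307, was 199 bp wide. It had a score of 71 and rank 9786, and 0.02% of the embryo list scored lower. The nearest midline peak, the strong midline-only one, lay 9.78 kb away. In the midline numbering 3 peaks were skipped between the first shared region and that peak, so a lower-scoring midline call at the same place is possible. In its rank class of the embryo list, 75.9% were embryo-only.

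**Figure D3:**
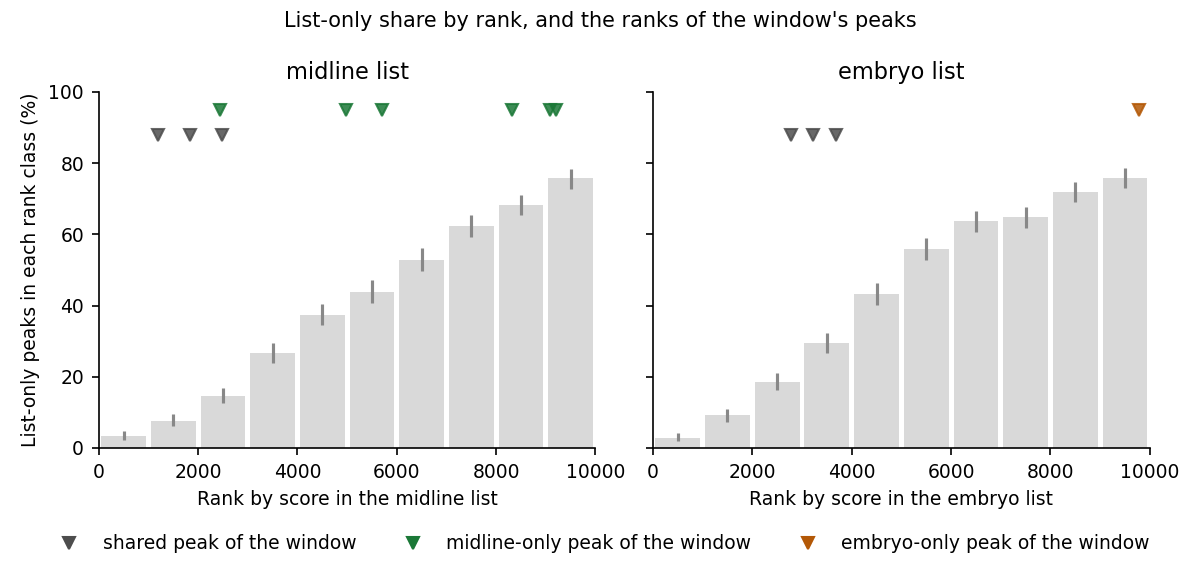
Percent of list-only peaks in each of 10 rank classes of the midline list (left) and the embryo list (right), with exact 95% intervals as lines, and the ranks of the window's peaks as triangles at arbitrary heights. The midline-only peak at rank 2449 stands where 14.6% are list-only, and the other midline-only peaks, at ranks 4988 to 9207, where 37.5 to 75.7% are.

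By numbers skipped, 4 midline calls were left out between the first and last midline peaks of the window, and 0 embryo calls between its first and last embryo peaks. On the assumption stated above, the longer lists held 13 midline and 4 embryo calls over those stretches. The midline stretch ran from 242705 to 318887 and the embryo stretch from 263663 to 304127, so the 2 counts cannot be compared. A further 4 embryo numbers were skipped below the embryo stretch and 1 above it, at unknown positions. Of the 6 midline-only peaks, 2 lay between consecutively numbered embryo peaks (33.3%), against 19.8% of the 3900 midline-only peaks of the series with embryo peaks on both sides. The embryo-only peak did not lie between consecutively numbered midline peaks, as 30.5% of the embryo-only peaks of the series did.

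By their medians, shared peaks of the window were wider and higher in rank than list-only peaks. Among the midline peaks of the window, the median rank was 1845 for shared and 7014 for midline-only ones. In the whole midline list these medians were 3373 and 7019, so the contrast was not particular to the window. Of the 6 midline-only peaks, 2 ranked among the first 5000 (33.3%), against 23.4% of the midline-only peaks of the series. The embryo-only peak did not, against 24% of those of the series that did. Shared midline peaks were 259 to 555 bp wide (median 377 bp) and midline-only peaks 135 to 423 bp (median 196 bp), against medians of 312 and 221 bp in the whole list. The ranges overlap because of the strong midline-only peak, which was wider than 2 of the 3 shared ones. Among embryo peaks, the shared ones were 280 to 674 bp wide and the embryo-only one 199 bp. The median midline peak of the window, with a score of 95, was at the median of its list, and the median embryo peak, with a score of 225, stood above the list's median of 154.

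By sequence, midline peaks covered 2509 bp of the window (2.28%) and embryo peaks 1658 bp (1.51%). The 1044 bp in both lists made up 41.6% of the former and 63.0% of the latter. Over the X these proportions were 69.1 and 47.7%, and over all arms 63.7 and 51.6%. Within each region both proportions divide the same shared sequence, so their order only restates which list covers more. That was the midline list in the window and the embryo list over the X and over all arms. Sequence in both lists was 33.4% of that in either in the window, against 39.3% over the X and 39.9% over all arms. This is a description of 1 window, with no error that could be attached to it.

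The window was not densely filled with peaks. Windows of 110 kb laid end to end along all arms held a median of 8 midline and 8 embryo peaks, and at most 41 and 38. At least 9 midline peaks stood in 48.8% of the 1083 windows and at least 4 embryo peaks in 82.3%, so the window was average for the midline and sparse for the embryo. An excess of at least 5 midline peaks over embryo peaks occurred in 126 of the 1083 windows (11.6%). On the X it occurred in 4 of 204 (1.96%), and 1 of those 4, from 220001 to 330000, takes in most of the window itself. With the tiling moved by 55 kb, 10 of 204 windows of the X (4.90%) reached it. On the X more windows had an embryo excess (125) than a midline excess (51).

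Most of the excess, but not all of it, came from weaker peaks. Among the 5000 highest-scoring peaks of each list, the window held 4 midline and 3 embryo peaks, a difference of 1. Of these 4 midline peaks 3 were shared, and the fourth was the peak at position 287085. The midline-only peak of rank 4988 shares its score of 95 with others, 69 peaks in all, and was left out because ties were broken by peak number. Counted with it, the window held 5 midline and 3 embryo peaks, a difference of 2.

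**Figure D4:**
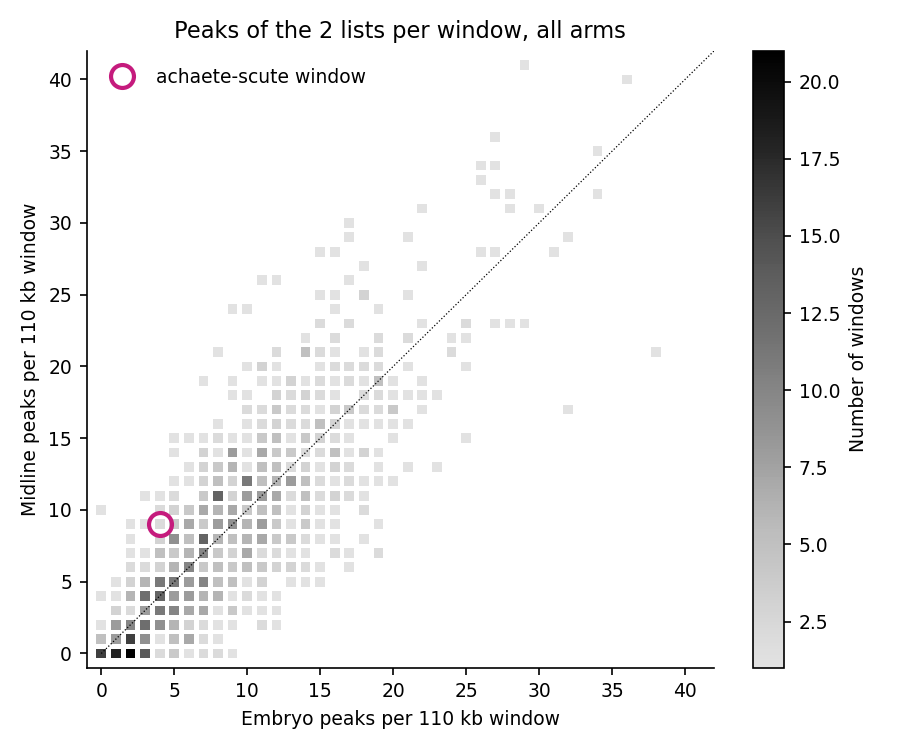
Number of midline peaks against embryo peaks in 1083 windows of 110 kb over all arms, shaded by the number of windows, with equality as a dotted line. The achaete-scute window, at 9 midline and 4 embryo peaks, lies above the line and within the spread of other windows.

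Among stretches that reach into the window, the largest without a peak in either list ran from 318888 to 351023, over 32.1 kb. It crosses the upper edge of the window. Of the 2404 stretches on the X without a peak in either list, 142 (5.91%) were longer, and the median was 3.64 kb. The longest stretch lying wholly inside the window was 13.1 kb, between the second midline-only peak and the first shared region.

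Just above the window stood 2 further shared regions. At chrX:351038-351360 a midline peak of 323 bp (score 150, rank 2997) lay inside an embryo peak at chrX:351024-351402 of 379 bp (score 339, rank 2097). At chrX:354697-354833 a midline peak of 137 bp (score 54, rank 8327) lay inside an embryo peak at chrX:354597-354900 of 304 bp (score 93, rank 7887). Both ranked higher in the embryo list, by 900 and 440 places, unlike the 3 pairs inside the window. The second is the weakest shared pair of the 5, with both peaks ranked beyond 5000. Just below the window, the nearest midline peak at chrX:236918-237082 (score 70, rank 6614) was midline-only. With the window made wider by 10 kb at each end, 5 of 12 midline peaks were shared (41.7%), as were 5 of 6 embryo peaks (83.3%).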

How the data were processed

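Reads of the 5 samples were processed on dm3 with CASAVA 1.8.2, Bowtie2, SAMtools, bedtools and MACS2, per the submitters' processing notes. Which settings they ran with, and how the input was used, is not stated in the labels. The file and peak names show that the authors pooled the replicates, called peaks and deposited the top 10000 per group. The deposited score of each peak is a whole number of unstated scale, used here only to rank peaks within a list (tied scores share the best rank). Other deposited columns are the peak positions. Depth is unknown. Columns of per-sample values left unused numbered 0.

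The members, lists and comparisons were chosen with earlier results of these data known. Every peak with its midpoint in the window was described. Values are given for all of them, and the rule for named genes allowed no gene to be assigned to a peak without a dm3 annotation. For the same reason the pathway genes, cell type markers and member proteins planned for description gave no values, and no sequence is printed. Shares carry exact Clopper-Pearson intervals. Windows of 110 kb were laid from the first base of each arm to its last peak. The excess of midline over embryo peaks was examined after the data were seen. Coordinates are 1-based. Sharing was checked on simulated data. The software was Python 3.11.15 with pandas 2.3.3, scipy 1.17.1 and numpy 2.4.6.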

Additional observations from a re-analysis of the deposited data

How the results depend on the processing

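Under all 6 changes to the overlap rule, the peak width and the window limits, the share of shared peaks stayed within its main interval. It ran from 22.2 to 41.7% for midline and from 50 to 83.3% for embryo peaks. With 9 and 4 peaks the main intervals, 7.49 to 70.1% and 19.4 to 99.4%, leave few possible values outside, so staying inside says little. With the 5000 highest-scoring peaks the share moved to 75.0 and 100% (3 of 4 and 3 of 3 peaks), also against all 10000 of the other list. The midline value rests on how ties were broken. With peaks tied at the limit kept, an alternative chosen after seeing the data, it was 60.0% (3 of 5), inside the main interval, and the embryo value was again 100%. High-scoring peaks of the whole lists were mostly shared as well. In rank classes 1 to 5 of 10, 3.4 to 37.5% of midline and 2.89 to 43.3% of embryo peaks were list-only against the full other list. The midline minus embryo difference was 5 peaks in the full lists, 1 among the 5000 highest-scoring and 2 with ties kept, and 4 and 6 with narrower and wider windows. Windows with at least as many peaks made up 55.4% (midline) and 67.0% (embryo) with the 5000 highest-scoring peaks. In the full lists, windows with at least as much embryo peak sequence in bp made up 71.9%. Ranked by width, 64.9% of midline and 37.6% of embryo peaks were above the window's median peak, against 49.9 and 34.5% by score. Sequence in both lists was 33.4% of that in either, 25.2% with 500 bp around each midpoint and 51.5% with the 5000 highest-scoring peaks. The shorter list removes the weaker peaks by construction, and for the other values the cause was not tested. No paired analysis was possible because each deposited list pools its replicates, and none could be left out. Without depth, a region missing from a list cannot be called closed.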
